A study of Homo sapiens and Mus musculus with 26 samples.

Results

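Perfluorooctanesulfonic acid (PFOS) is a fully fluorinated, chemically persistent surfactant, and 2102EP is an established human embryonal carcinoma cell line, the pluripotent type of testicular germ cell tumor (TGCT). The comparison described here set 2 cultures of 2102EP cells exposed to 5 µM PFOS directly against 2 cultures exposed to 10 nM, a 500-fold difference in dose, and asked which gene classes differed between the doses. The members were the 16694 named genes, of 16698 in the table, that reached at least 0.25 CPM (the read count of a gene scaled to a common library size) in 2 or more of these 4 cultures, and the 4 cultures were among 26 samples of a series that also holds a cisplatin-resistant clone and mouse testes. All cultures were parental, unmodified cells kept for 4 days in the same serum-containing medium. They carried 10 nM PFOS, 5 µM PFOS or, in the 2 control cultures, the DMSO vehicle alone, and the controls entered the model only through the spread between replicates. Every culture came from 1 cell line, and 2 libraries per dose were used here. The p-values therefore measure the spread between replicate cultures of the same line, pooled over both doses and the controls and shared across genes.

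Embryonal carcinoma cells resemble the pluripotent cells of the early embryo: they divide fast, depend on a high output of ribosomes and proteins, and are held in that state by POU5F1, NANOG and SOX2 together with polycomb repression and DNA methylation. PFOS resembles a fatty acid in shape and is known to bind fatty acid binding proteins and to activate peroxisome proliferator-activated receptors (PPARs). The lists below therefore cover protein synthesis, mitochondria, pluripotency, chromatin, lipid metabolism and stress responses.

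The libraries held 33299121 to 48717356 reads on genes, with 41052497 or more in each of the 4 PFOS cultures. All 11 embryonal carcinoma markers lay between 6.87 and 11.0 log2 CPM in the 6 cultures. Of the markers of other lineages, 2 of 6 for yolk sac, 3 of 4 for trophoblast, 3 of 3 for seminoma, 3 of 5 for stroma, 3 of 4 for immune and endothelial cells and 0 of 3 for neuroectoderm were among the genes tested, and AFP, SOX17, FOXA2, CGA, LUM, DCN, PTPRC, PAX6 and SOX1 were not. The highest of those tested was the stroma marker THY1, at 8.06 and 7.99 log2 CPM at 10 nM and 8.03 and 8.02 at 5 µM, and its level did not separate the doses. On the first principal component, which held 63.8% of the variance, the controls scored -17.9 and -15.3, the 10 nM cultures 8 and 7.2 and the 5 µM cultures 7.3 and 10.7, so the 2 doses were intermixed there.

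No gene differed between 5 µM and 10 nM PFOS after correction. With limma, 0 of 16694 genes (0%) had a Benjamini-Hochberg adjusted p under 0.05, and the smallest adjusted p was 0.556, for EIF3C. An unadjusted limma p under 0.05 was found for 552 genes (3.31%), of which 252 were higher at 5 µM (1.51%) and 300 lower (1.8%). The limma-voom model on the recovered reads also called 0 genes, with 668 at an unadjusted p under 0.05. When the controls were left out of the model, 1 gene, EIF3C, was called and 993 had an unadjusted p under 0.05. In the 6-culture model, 4298 genes (25.7%) were called at 10 nM and 4484 (26.9%) at 5 µM against the shared controls.

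The differences between doses were narrow. The median difference over all genes was -0.0013 on the log2 CPM scale, and the median absolute difference was 0.054. For 15948 genes (95.5%), the 95% confidence interval of the difference lay wholly within a 2-fold change in either direction, and for 13400 (80.3%) within 1.5-fold. Among the 8482 genes with a mean of at least 4 log2 CPM over the PFOS cultures, the median half-width of that interval was 0.12 and none differed by 1.5-fold or more. Among the 3696 genes with a mean under 1 log2 CPM the median half-width was 0.58, and the interval lay wholly within 1.5-fold for 659 of them (17.8%). Both 5 µM cultures lay above both 10 nM cultures for 2966 genes (17.8%) and below both for 2837 (17%). With 2 cultures against 2, an exact permutation test cannot give a two-sided p below 0.333, so these counts are descriptions.

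The gene with the smallest p was EIF3C, which encodes a core subunit of the translation initiation factor eIF3 and lies at chr16:28688558-28735730 (GRCh38.p14). It was at 4.38 log2 CPM in both 10 nM cultures, at 4.76 and 4.85 in the 5 µM cultures and at 4.86 and 4.63 in the controls. The 5 µM cultures were thus in the range of the controls and both 10 nM cultures were below it. The difference was 0.42 ± 0.075 (SE), or 1.34-fold, with an unadjusted p of 3.33e-05. Its adjusted p was 0.556 with the controls in the model and 0.0111 without them. EIF3C was not called in the alternatives that kept all 6 cultures. Among these, the smallest adjusted p of any gene was 0.254 with limma-voom and 0.0725 in limma with no variance trend. When single cultures were omitted, whether EIF3C was called depended on which culture it was. Its difference was 0.47 when 5 µM replicate 1 was the one omitted. EIF3C has a near-identical copy on the same chromosome, EIF3CL, and reads shared between them cannot be assigned with certainty. EIF3CL was at -0.29 and 0.042 log2 CPM at 10 nM and 0.22 and 0.11 at 5 µM, a difference of 0.29 ± 0.25, and its difference was smaller than its interval (-0.23 to 0.81).

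The other genes that led on the higher side acted mostly in redox chemistry, mitochondria, messenger RNA export or the ribosome, and none was called. TXNDC17, a small thioredoxin-like oxidoreductase, was at 5.37 and 5.43 log2 CPM at 10 nM and at 5.65 in both 5 µM cultures, a difference of 0.25 ± 0.052. MRPS34, a protein of the small mitochondrial ribosomal subunit, was at 7.20 and 7.25 at 10 nM and 7.38 and 7.43 at 5 µM. For these genes the controls, at 5.68 and 5.72 for TXNDC17 and at 7.81 and 7.85 for MRPS34, were above both doses. The same order of control, 5 µM and 10 nM was seen in COX5B, a nuclear-encoded subunit of cytochrome c oxidase, with 6.91 and 6.88 in the controls, 6.63 and 6.57 at 5 µM and 6.42 and 6.44 at 10 nM. GADD45GIP1, a protein of the large mitochondrial ribosomal subunit, went from 6.77 in both 10 nM cultures to 6.87 and 7.03, and TOP1MT, the mitochondrial type I topoisomerase, from 5.46 and 5.49 to 5.63 and 5.66. ALYREF, an adaptor for messenger RNA export, had another order: 7.71 and 7.69 in the controls, 7.78 in both 10 nM cultures and 7.90 and 7.96 at 5 µM. TOR3A, a torsin-family ATPase of the endoplasmic reticulum, was at 5.50 and 5.47 at 10 nM and at 5.67 and 5.66 at 5 µM, close to its controls at 5.66 and 5.64. SDHAF1, an assembly factor of succinate dehydrogenase, was at 3.61 and 3.52 against 3.84 and 3.83. Apart from the ribosomal protein genes RPL36, RPL41 and RPS25 described below, these 8 genes and EIF3C made up the 12 with the smallest p on the higher side.

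The 5 genes with the largest differences on the higher side, at a mean of at least 1 log2 CPM, were EIF3C and 4 genes of lower level. VIM-AS1, an antisense RNA at the vimentin gene, was at 0.89 and 0.79 log2 CPM at 10 nM and at 1.58 and 1.11 at 5 µM, a difference of 0.50 ± 0.18. The library kit was stranded, but whether the counting used strand is not given in the sources used here, so its reads cannot be told apart with certainty from those of its partner. SRRM4, a splicing regulator of neurons, was at 1.05 and 0.83 against 1.60 and 1.27. INSM1, a zinc finger factor of neuroendocrine cells, was at 1.83 and 1.5 against 1.97 and 2.09, and the lncRNA LOC105376289 at 1.03 and 1.17 against 1.51 and 1.54. In these 4 the doses did not overlap, which the choice fixed, and the unadjusted p ran from 0.0105 for SRRM4 to 0.0298 for INSM1.

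On the lower side, the 12 genes with the smallest p held cell cycle, cell surface and secreted proteins and 3 pseudogenes. CCND2 encodes cyclin D2, a partner of the kinases that drive cells out of G1, and lies on the short arm of chromosome 12 that is gained in TGCTs. It was at 8.16 and 8.22 log2 CPM at 10 nM, 8.07 and 8.01 at 5 µM and 8.08 in both controls, a difference of -0.16 ± 0.041. The 5 µM cultures were near the controls and the 10 nM cultures were the highest. HPS1, a subunit of a complex that builds lysosome-related organelles, had the same order, at 3.86 and 3.94 at 10 nM against 3.64 and 3.62 at 5 µM and 3.65 and 3.62 in the controls. In the following genes the 5 µM cultures were the lowest of all 6. IL13RA2, a decoy receptor for interleukin-13, was at 3.64 and 3.72 at 10 nM and 3.37 and 3.40 at 5 µM. SEZ6L, a neuronal membrane protein, was at 1.53 and 1.58 against 0.97 and 0.98, the largest of these differences outside the pseudogenes at -0.58 ± 0.16. POU2F2, a POU-domain transcription factor best known in B cells, was at 2.68 and 2.77 against 2.39 and 2.21. NHS, a regulator of actin remodelling, was at 6.18 and 6.25 against 6.04 and 6.03. SPON1, a secreted matrix protein, was at 5.37 and 5.28 against 5.08 and 5.13, and A2ML1, a secreted protease inhibitor, at 3.85 and 3.86 against 3.61 and 3.52. PLEKHB1 was at 1.89 and 1.78 against 1.44 and 1.27.

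**Figure D1:**
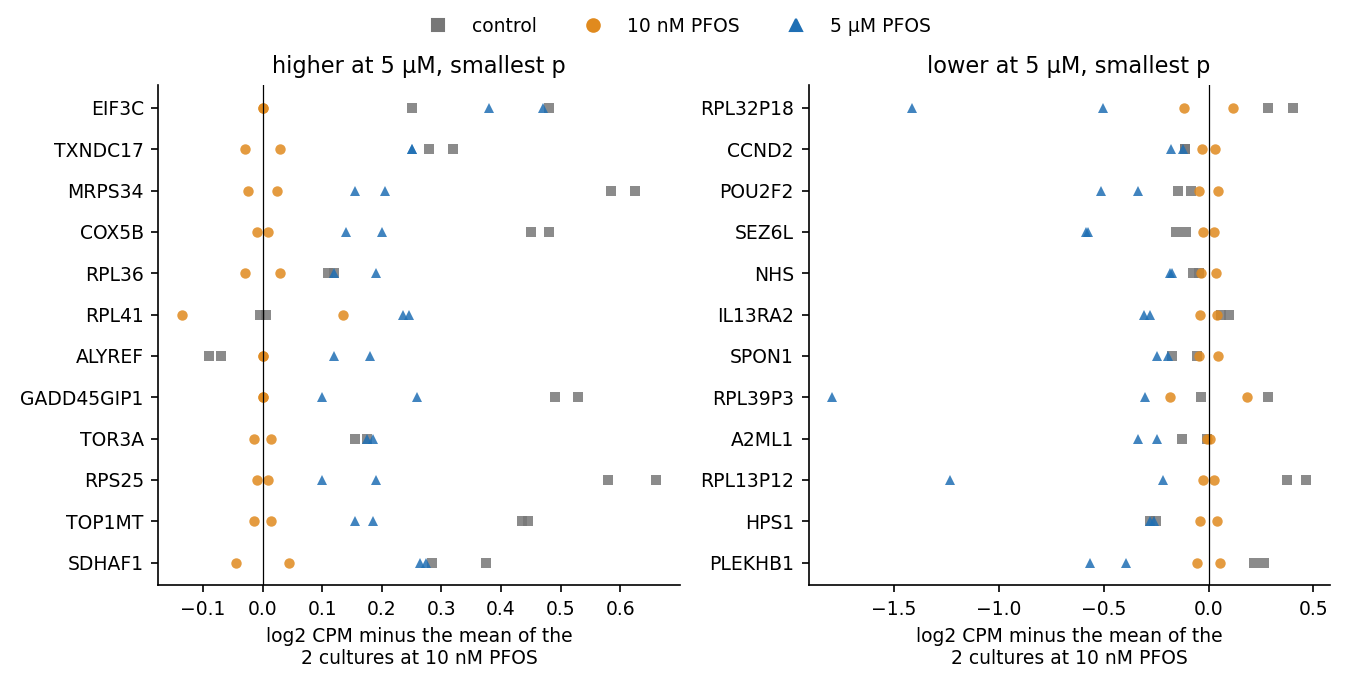
The 12 genes with the smallest p on the higher side (left) and on the lower side (right), each culture drawn as its log2 CPM minus the mean of the 2 cultures at 10 nM; squares are controls, circles 10 nM and triangles 5 µM, and the 2 panels have different scales. The doses are separate in all 24 genes, which the choice of genes fixed, while the controls lie on either side of the doses; RPL39P3, RPL13P12 and RPL32P18 have 1 far-left triangle each, from 5 µM replicate 2.

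A coordinated shift was present in the genes for the proteins of the cytosolic ribosome, which joins ribosomal RNA with about equal amounts of each protein and makes all proteins of the cell. Of 87 such genes, 77 were higher and 10 lower at 5 µM, and the median difference was 0.060, against -0.0013 over all genes. Both 5 µM cultures lay above both 10 nM cultures for 62 of them (71.3%) and below for 1 (1.15%), where 17.8% and 17% of all genes did so. An unadjusted p under 0.05 was found for 24 (27.6%), all higher, against 3.31% of all genes. The median difference from the mean of the 10 nM cultures was 0.058 for 5 µM replicate 1 and 0.064 for replicate 2, values that share the same 10 nM reference. The quartiles of the list were 0.040 and 0.096.

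Messenger RNAs of ribosomal proteins are known to begin with a C and a run of pyrimidines, through which their translation follows growth signals. The 30 bases around the annotated start are shown for the 4 members with the smallest p, because these genes share their start, a feature the rule for choosing them did not use. Each line holds 20 bases before the start and the first 10 transcribed bases on the coding strand, from RefSeq (GRCh38.p14), with the pyrimidine run from the first transcribed base in capitals.
RPL36 (chr19:5690275-5690304, plus strand): gagttccgcgcggcgccagcCCTTCCgcca
RPL41 (chr12:56116613-56116642, plus strand): gtagacggaacttcgcctttCTCTCggcct
RPS25 (chr11:119018334-119018363, minus strand): ccgtttctgagcagcgcttcCTTTTTgtcc
RPS21 (chr20:62387083-62387112, plus strand): tgccgggtgactagctgcttCCTTTCTCTC
The run was 6 bases in RPL36, 5 in RPL41, 6 in RPS25 and all 10 in RPS21. A C at the first base followed by at least 4 more bases that were each C or T, read on the coding strand only, was present in 45 of the 69 ribosomal protein genes with a start in the table (65.2%). It was present in 1104 of all 27305 starts (4.04%) and in 604 of 11187 protein-coding genes tested (5.4%). The 559 tested coding genes with such a start outside the list had a median difference of 0.0049. Of these 559, 113 lay above and 69 below, where 17.8% and 17% of all genes did so. The 45 ribosomal protein genes with it had a median of 0.077 and the 24 without it 0.052, so members of both kinds were on the higher side.

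RPL36, a protein of the large subunit, was at 8.5 and 8.56 log2 CPM at 10 nM and 8.65 and 8.72 at 5 µM, a difference of 0.15 ± 0.041. RPL41, which encodes the smallest protein of the large subunit, was at 6.33 and 6.60 against 6.71 and 6.70, and RPS21, of the small subunit, at 6.74 and 6.80 against 6.92 in both 5 µM cultures. In RPL36, RPL41 and RPS21 at least 1 of the 5 µM cultures exceeded both controls. RPS25, which lies in the head of the small subunit, was at 8.55 and 8.53 against 8.64 and 8.73, below its controls at 9.12 and 9.20. The ribosomal protein genes thus shared a direction between doses and not a common position relative to the controls. The widest differences in the list were in RPS10 (0.33) and RPL17 (0.31), which overlap readthrough genes, so that their reads may be divided and their values are uncertain. The lowest was in RPL36A (-0.29), at a mean of -0.67 log2 CPM. The 10 members on the lower side also held the tissue-restricted paralogs RPL10L (-0.068) and RPL3L (-0.038), along with RPL23A (-0.044) and RPL28 (-0.021). The median of the list was between 0.056 and 0.067 when any 1 of the 6 cultures was left out. Its count of 24 at an unadjusted p under 0.05 was 12 without 10 nM replicate 1, 15 without 5 µM replicate 1 and 3 without 5 µM replicate 2, and 3 in a model without a variance trend.

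**Figure D2:**
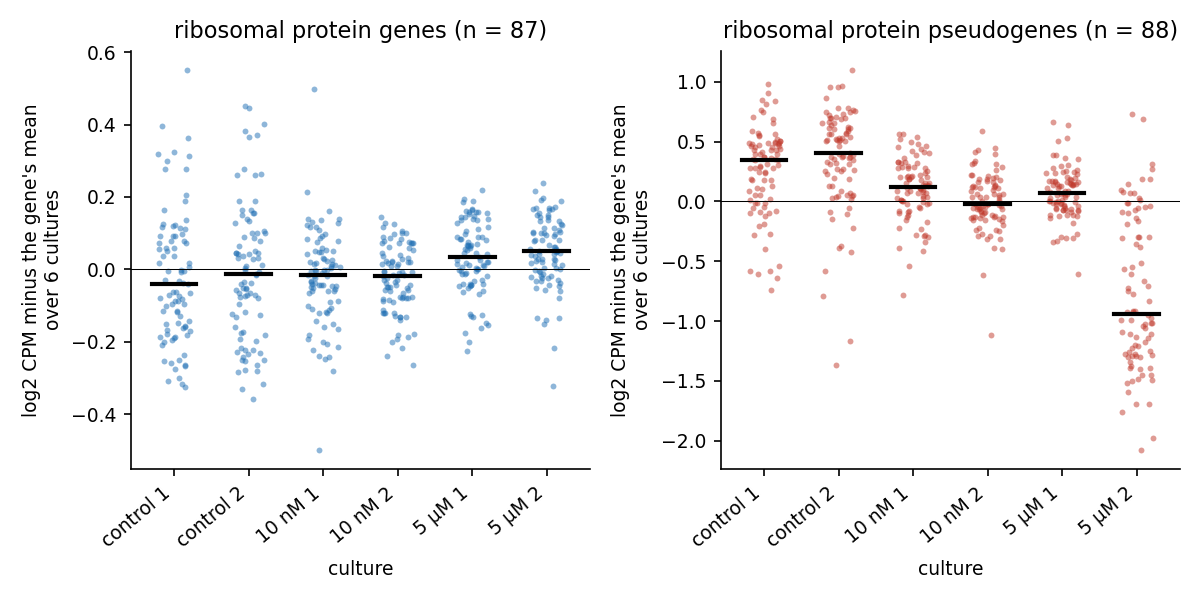
Genes of cytosolic ribosomal proteins (left, 87 genes) and their pseudogenes (right, 88), each point 1 gene in 1 culture as its log2 CPM minus its mean over the 6 cultures, with the median as a bar and different scales in the panels. The medians of the ribosomal protein genes are -0.017 and -0.018 at 10 nM and 0.035 and 0.050 at 5 µM, while those of the pseudogenes are 0.12 and -0.020 at 10 nM, 0.067 in 5 µM replicate 1 and -0.94 in 5 µM replicate 2.

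Genes for some other large protein assemblies leaned the same way by smaller amounts. Those of the nuclear pore did not: 15 of 28 were higher, with a median of 0.0016, 2 above (7.14%) and 1 below (3.57%). The mitochondrial ribosome translates the messages of the mitochondrial genome, and of its 78 genes 68 were higher at 5 µM, with a median of 0.049, 35 above (44.9%) and 2 below (2.56%). An unadjusted p under 0.05 was found for 4 of them (5.13%, where 3.31% of all genes had it), MRPS34, MRPS26, MRPL41 and MRPS12. MRPS26 was at 6.74 and 6.70 against 6.83 and 6.87, MRPL41 at 4.68 and 4.64 against 4.77 and 4.92, and MRPS12 at 5.21 and 5.19 against 5.31 and 5.36. The respiratory chain and ATP synthase make ATP from electrons of food, and of their 80 nuclear genes 68 were higher, with a median of 0.044, 46 above (57.5%) and 4 below (5%). The members with the smallest p after COX5B were COX7A2 and COX7B, subunits of cytochrome c oxidase, and NDUFS5, a subunit of complex I. COX7A2 was at 5.71 and 5.69 against 5.85 and 5.88, NDUFS5 at 7.28 and 7.16 against 7.37 and 7.38, and COX7B at 7.38 and 7.42 against 7.52 and 7.53. An unadjusted p under 0.05 was found for 10 of the 80 (12.5%), all higher.

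Of 47 proteasome genes, which encode the main protease of the cytosol and nucleus, 38 were higher, with a median of 0.028, 14 above (29.8%) and 2 below (4.26%). PSMB5, a catalytic subunit, was at 6.86 and 6.75 against 6.90 and 6.91. Of the catalytic subunits of the immunoproteasome, PSMB10 was higher at 3.51 and 3.38 against 3.65 and 3.68. PSMB8 was lower at 1.69 and 1.44 against 1.23 and 1.21. Of 37 MYC and ribosome biogenesis genes, 25 were higher, with a median of 0.034, 17 above (45.9%) and 3 below (8.11%). NHP2, a protein of the H/ACA ribonucleoprotein that guides pseudouridine into ribosomal RNA, was at 7.13 and 7.07 against 7.19 and 7.26, and RRP9, a protein of the U3 particle that starts processing of ribosomal RNA, at 6.56 and 6.49 against 6.65 and 6.62. Of 35 hnRNP and SR protein genes, 25 were higher with a median of 0.021, 11 above (31.4%) and 2 below (5.71%), and 0 had an unadjusted p under 0.05.

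Transcripts of the cytosolic ribosome, mitochondrial ribosome and respiratory chain lists were short. Their median lengths were 869, 1287 and 757 bases, against 3152 over all genes. The difference between doses moved with transcript length in coding genes outside these lists too, though the cultures of a dose did not always go together. Among coding genes of at least 4 log2 CPM, the median difference was 0.056 for 100 genes with a transcript of up to 600 bases, 0.051 for 308 of 601 to 1000, and 0.028 for 1302 of 1001 to 2000. It was 0.0074 for 2909 genes of 2001 to 4000 bases, -0.0081 for 2859 of 4001 to 8000 and -0.0074 for 859 over 8000. In the shortest class 54% lay above and 5% below, and in the longest class 11.3% and 19.3%. After the 4 lists of cytosolic ribosome, mitochondrial ribosome, respiratory chain and proteasome were left out, the medians of the 3 shortest classes were 0.037, 0.044 and 0.027. The ribosomal protein genes lay above other coding genes of similar length in each class where they were present, with medians of 0.084 for 23 members of up to 600 bases, 0.071 for 25 of 601 to 1000, 0.053 for 18 of 1001 to 2000 and 0.050 for 15 of 2001 to 4000. The classes were matched for length and not for level. The ribosomal protein genes had a median of 8.82 log2 CPM at 10 nM, and 80 of the 87 had a mean of at least 4. The part of transcript length in the shifts of these lists was not tested.

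**Figure D3:**
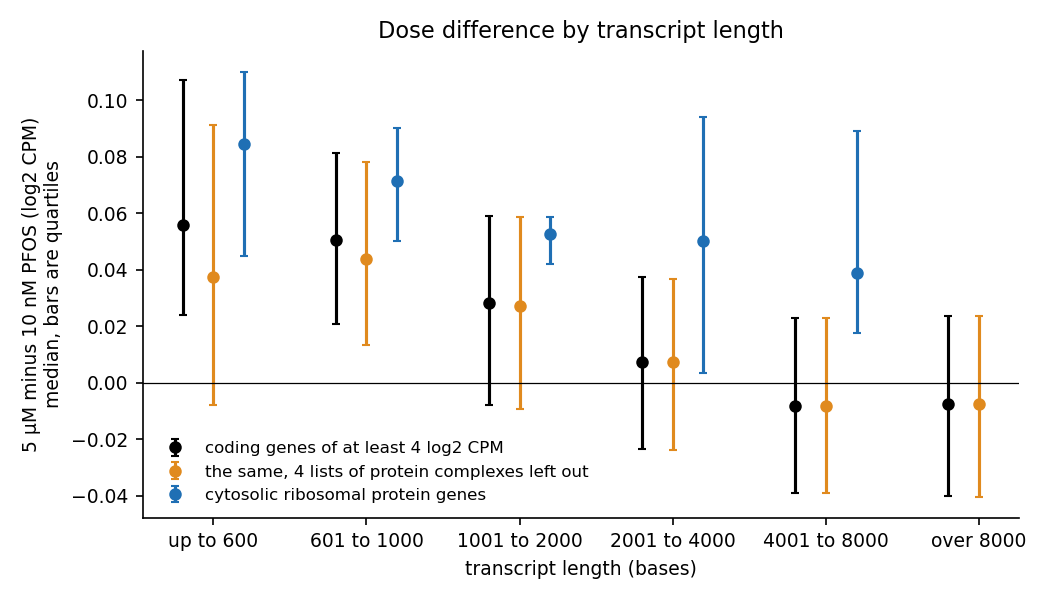
Median difference between 5 µM and 10 nM (log2 CPM, bars are quartiles) by length of the canonical transcript in bases, for coding genes of at least 4 log2 CPM (black), the same without 4 lists of protein complexes (orange) and the 87 ribosomal protein genes (blue, classes of 5 or more genes). Black points go from 0.056 in the shortest class to -0.0074 in the longest, and blue points lie above them in each class drawn.

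At a mean of at least 1 log2 CPM, the largest differences between the doses were in pseudogenes. Pseudogenes mostly encode no protein, and many of them are copies of messenger RNAs inserted in the genome. Among the 3696 genes with a mean under 1 log2 CPM, where intervals were wider, 178 differed by 1.5-fold or more. These included coding genes, such as ADGRA1 with a difference of 1.01. Among the 12998 genes with a mean of at least 1 log2 CPM, 19 differed by 1.5-fold or more. All 19 were lower at 5 µM and all were pseudogenes, 18 of ribosomal protein genes and 1, KRT18P8, of a keratin gene. This count was 50 without 5 µM replicate 1 (31 ribosomal protein pseudogenes, 4 coding genes), 29 without 10 nM replicate 2 (22 and 3), 26 without 10 nM replicate 1 (12 and 6) and 8 without 5 µM replicate 2 (0 and 5, with 5 of the 8 higher). It was 23 with limma-voom (21 and 1) and 6 on the log2(CPM + 1) scale (6 and 0). RPL39P3 had the largest of these differences, and RPL32P18 the smallest p. RPL39P3 was at 4.19 and 3.82 log2 CPM at 10 nM, 3.70 in 5 µM replicate 1 and 2.21 in 5 µM replicate 2, with 3.97 and 4.29 in the controls. RPL32P18 was at 1.70 and 1.47 at 10 nM and at 1.08 and 0.17 at 5 µM, and RPL13P12 at 3.05 and 3.10 against 2.86 and 1.84. RPL10AP6 was at 2.30 and 2.28 against 2.26 and 0.66, and RPL27AP6 at 2.85 and 2.73 against 2.71 and 1.53. In each of them 5 µM replicate 2 was far below the other 5 cultures.

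Over the list of 88 ribosomal protein pseudogenes, 73 were lower and 15 higher at 5 µM, with a median difference of -0.43. An unadjusted p under 0.05 was found for 34 (38.6%), of which 33 were lower. That count was 10 without 10 nM replicate 1, 25 without 10 nM replicate 2, 55 without 5 µM replicate 1, 3 without 5 µM replicate 2 and 6 without a variance trend. Only 22 (25%) lay below in both 5 µM cultures and 7 (7.95%) above, so the 2 cultures at 5 µM did not share the difference in most of them. The median difference from 10 nM was 0.015 in 5 µM replicate 1 and -0.99 in replicate 2, and 5 µM replicate 2 was the lowest of the 6 cultures in 61 of the 88 (69.3%). Without 5 µM replicate 2 the median over the list was 0.015 and 39 of the 88 were lower. Without 5 µM replicate 1 limma called 59 genes, 58 of them lower. Of these 59, 55 were pseudogenes, 40 of them of ribosomal proteins, 3 were transfer RNA genes (TRNW, TRNG and TRNH, named after their values were seen) and 1 was a protein-coding gene, EIF3C, which was higher. The levels of TRNW were 4.21 and 4.48 at 10 nM, 4.33 in 5 µM replicate 1 and 3.27 in 5 µM replicate 2. Such pseudogenes share most of their sequence with their parent genes, so reads can be divided between them and their values are uncertain. The parent genes did not go with them in 5 µM replicate 2, where the median of the ribosomal protein genes was the highest of the 6 cultures. The other 287 pseudogenes had a median of -0.072, with 0.014 for 5 µM replicate 1 and -0.16 for replicate 2.

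**Figure D4:**
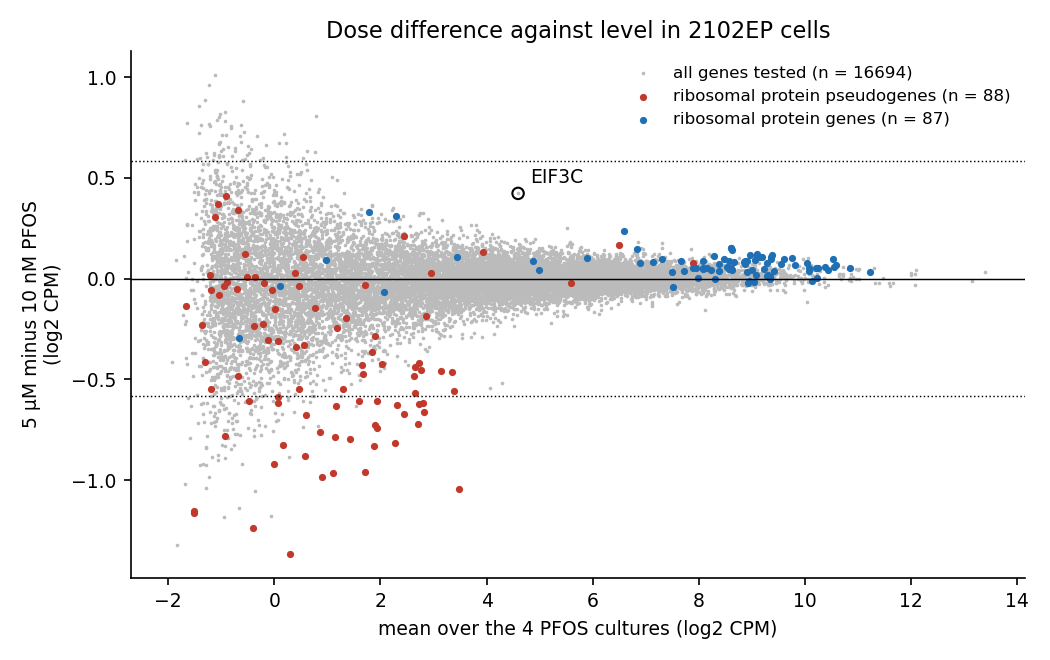
Difference between 5 µM and 10 nM PFOS (log2 CPM) against the mean over the 4 PFOS cultures for all 16694 genes (grey), with ribosomal protein genes in blue, their pseudogenes in red, and dotted lines at 1.5-fold. At levels of 1 log2 CPM or more the points past a dotted line are the 19 pseudogenes on the lower side, the ribosomal protein genes form a band just above 0 at high level, and EIF3C stands alone above the cloud at 0.42.

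The pluripotency genes of the line were level between the doses. Of 30 embryonal carcinoma and pluripotency genes, 12 were higher and 18 lower, the median was -0.0073, and the differences ran from -0.077 to 0.099, with 5 above (16.7%) and 6 below (20%). POU5F1, the central pluripotency factor, had the widest of them. It was at 9.94 and 9.89 log2 CPM at 10 nM and 10.00 and 10.03 at 5 µM, below its controls at 10.17 and 10.14, with an unadjusted p of 0.0211. NANOG was at 8.10 and 8.12 against 8.08 and 8.05, SOX2 at 8.07 and 8.05 against 8.11 and 8.06, and DPPA4 at 8.90 and 8.87 against 8.84 and 8.82. NODAL, a ligand that maintains pluripotency, was at 7.20 and 7.15 against 7.26 and 7.27, and CER1, a secreted antagonist of NODAL and BMP, was lower at 5.62 and 5.59 against 5.43 and 5.41. OTX2, a factor of the epiblast and forebrain, was higher at 3.75 and 3.66 against 3.98 and 3.90, with an unadjusted p of 0.00686 and its controls at 3.91 and 3.92. Of 7 neuroectoderm genes tested, 3 were higher and 4 lower.

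Genes of polycomb repression and DNA methylation showed no common direction. Polycomb complexes mark silent developmental genes with H3K27me3, and of 35 genes for them and their opposing demethylases 18 were higher and 17 lower, with a median of 0.0018 and 0 at an unadjusted p under 0.05. EZH2, the methyltransferase, was at 5.64 and 5.75 log2 CPM at 10 nM and 5.65 and 5.74 at 5 µM, a difference of 0.0023 ± 0.056. Its core partners EED and SUZ12 differed by 0.028 ± 0.064 and -0.026 ± 0.048. Of the developmental regulators known to be marked by H3K27me3 in stem cells, 108 were tested, with 50 on the higher and 58 on the lower side, a median of -0.0091 and 22 above (20.4%) and 17 below (15.7%). Of 22 DNA methylation genes, 10 were higher and 12 lower. The maintenance enzyme DNMT1 was at 9.02 and 9.03 against 9.03 in both 5 µM cultures, and the de novo enzymes DNMT3A and DNMT3B differed by -0.047 ± 0.04 and -0.0046 ± 0.038. MBD2 and MBD3, which read methylated DNA or belong to the same repressor complex, were higher: MBD2 at 4.72 and 4.74 against 4.87 and 4.86, and MBD3 at 6.98 and 6.87 against 7.08 and 7.02. Of 19 germline genes that DNA methylation silences in other tissues, 12 were lower, with a median of -0.066, and TDRD9, a helicase of the piRNA pathway, was at 0.25 and 0.45 against -0.41 in both 5 µM cultures.

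Targets of the lipid-sensing receptors did not separate the doses as a group. Of 22 PPAR receptor and target genes, 11 were higher and 11 lower, with a median of -0.0057, 1 above (4.55%) and 5 below (22.7%). PPARA was at 0.98 and 1.20 log2 CPM at 10 nM and 0.95 and 1.05 at 5 µM, PPARD was at 4.47 and 4.50 against 4.46 and 4.39, and PPARG was not among the genes tested. PLIN2, which coats lipid droplets and is a classical PPAR target, was at 6.83 in both 10 nM cultures and 6.76 and 6.73 at 5 µM. UCP2, a carrier of the inner mitochondrial membrane, was at 4.24 and 4.21 against 4.13 and 3.89. Fatty acid oxidation genes leaned higher, with 22 of 34, a median of 0.036, 12 above (35.3%) and 2 below (5.88%). ECI1 and ECHS1, enzymes of the oxidation cycle, were at 5.69 and 5.65 against 5.76 and 5.81 and at 5.68 and 5.65 against 5.77 and 5.75, and ETFA, which passes its electrons on, at 5.96 and 5.97 against 6.05 and 6.06. In fatty acid synthesis, 18 of 25 genes were lower with a median of -0.019, and SCD, which introduces double bonds, was at 9.40 and 9.35 against 9.33 and 9.29. Of 29 cholesterol genes, 16 were higher with a median of 0.010. Peroxins, which import proteins into peroxisomes, were higher in 11 of 15, with PEX6 at 2.45 and 2.68 against 2.94 and 2.82 and PEX3 at 4.35 in both 10 nM cultures against 4.48 and 4.55. Of 18 steroid hormone synthesis genes, 10 were higher and 8 lower.

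Most lists of stress, cell cycle and repair genes had medians within 0.02 of 0. Of 46 targets of the hypoxia-inducible factors, 27 were lower and 19 higher, with a median of -0.011. NDRG1, VEGFA and PDK1 were on the lower side, with NDRG1 at 3.88 and 3.93 log2 CPM at 10 nM and 3.71 and 3.68 at 5 µM. HILPDA was on the higher side, at 3.74 in both 10 nM cultures and 3.92 and 3.87 at 5 µM. The glycolysis enzymes had a median of 0.0049, with 2 of 27 above and 3 below. Among 32 p53 targets, 17 were higher and 15 lower, and 0 had an unadjusted p under 0.05. The apoptosis regulators were higher in 22 of 40, and FADD, an adaptor of death receptors, was at 5.46 and 5.48 against 5.59 and 5.60. In homologous recombination, 18 of 39 were higher with a median of -0.012, and in the Fanconi anemia proteins 10 of 19 with a median of 0.0033. The spindle and kinetochore genes, 34 of 65 higher, had a median of 0.0029. NRF2 targets were higher in 17 of 30, with GPX4, which reduces lipid peroxides, at 7.52 and 7.47 against 7.60 and 7.58. Genes of the unfolded protein response were higher in 22 of 30, with a median of 0.019, 9 above (30%) and 5 below (16.7%). Those of the heat shock response were higher in 18 of 27, with a median of 0.021, 2 above (7.41%) and 0 below. Of 54 DNA replication genes 34 were higher with a median of 0.0092, 12 above (22.2%) and 2 below (3.7%), where 4579 of all 8482 genes of at least 4 log2 CPM were higher. The ATF4 targets, 25 of 41 higher, had a median of 0.0097, and the 32 interferon-induced genes, 20 of them lower, a median of -0.027.

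Genes of the cell surface and matrix had no common direction. Of 40 matrix genes 18 were higher and 22 lower with a median of -0.0096, and 10 lay below (25%) and 6 above (15%), against 17% and 17.8% of all genes, with COL1A1 at 6.18 and 6.31 log2 CPM at 10 nM and 6.09 and 6.08 at 5 µM and NID1, a basement membrane linker, at 5.94 and 5.87 against 5.79 and 5.80. Of 49 clustered protocadherins, adhesion proteins from which each neuron draws its own set, 13 lay below (26.5%) and 7 above (14.3%), with PCDHGB6 at 1.88 and 2.12 against 1.56 and 1.71. An unadjusted limma p under 0.05 was found for 4 of the 49, of which 3 were lower. The 1 that was higher, PCDHB4, was at -0.84 and -0.74 against -0.37 and 0.029. In some of the clusters the genes share constant exons, so reads can be divided between those members. Among 271 solute carriers, 51 lay below (18.8%), near the share of all genes, and 33 above (12.2%), with the mitochondrial carrier SLC25A36 at 5.97 and 6.0 against 5.81 and 5.86. Of 10 keratins 8 were higher, and KRT8 and KRT18, partners in simple epithelia, differed by 0.10 and 0.067.

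Noncoding RNA genes were mostly of low level. Of 1558 lncRNA genes by RefSeq, 889 were lower with a median of -0.033, 205 above (13.2%) and 291 below (18.7%). All 3696 genes under 1 log2 CPM also had a median of -0.033, with 2038 lower. That set includes the lncRNA genes of low level, so it is no separate reference for them. LINC01356, at the highest level among the 4 long intergenic RNA genes with the smallest p, was at 7.87 and 7.85 log2 CPM at 10 nM and 7.80 and 7.73 at 5 µM, with its controls at 8.57 and 8.55. Of 68 small nucleolar and Cajal body RNA genes, 32 were higher and 36 lower, and such short RNAs are poorly sampled by messenger RNA libraries. Of 480 zinc finger genes, 271 were lower with a median of -0.011, and 5 (1.04%) had an unadjusted p under 0.05, against 3.31% of all genes. By chromosome, among genes of at least 1 log2 CPM, medians ran from -0.0084 on chromosome 8 to 0.018 on chromosome 22. On chromosome 22, 24.3% lay above and 11.3% below, and on chromosome 8, 15.1% and 21.2%. The share above ran from 13.9% on chromosome 4 to 26.4% on chromosome 16. Over all genes tested, at any level, 17.8% lay above and 17% below.

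**Figure D5:**
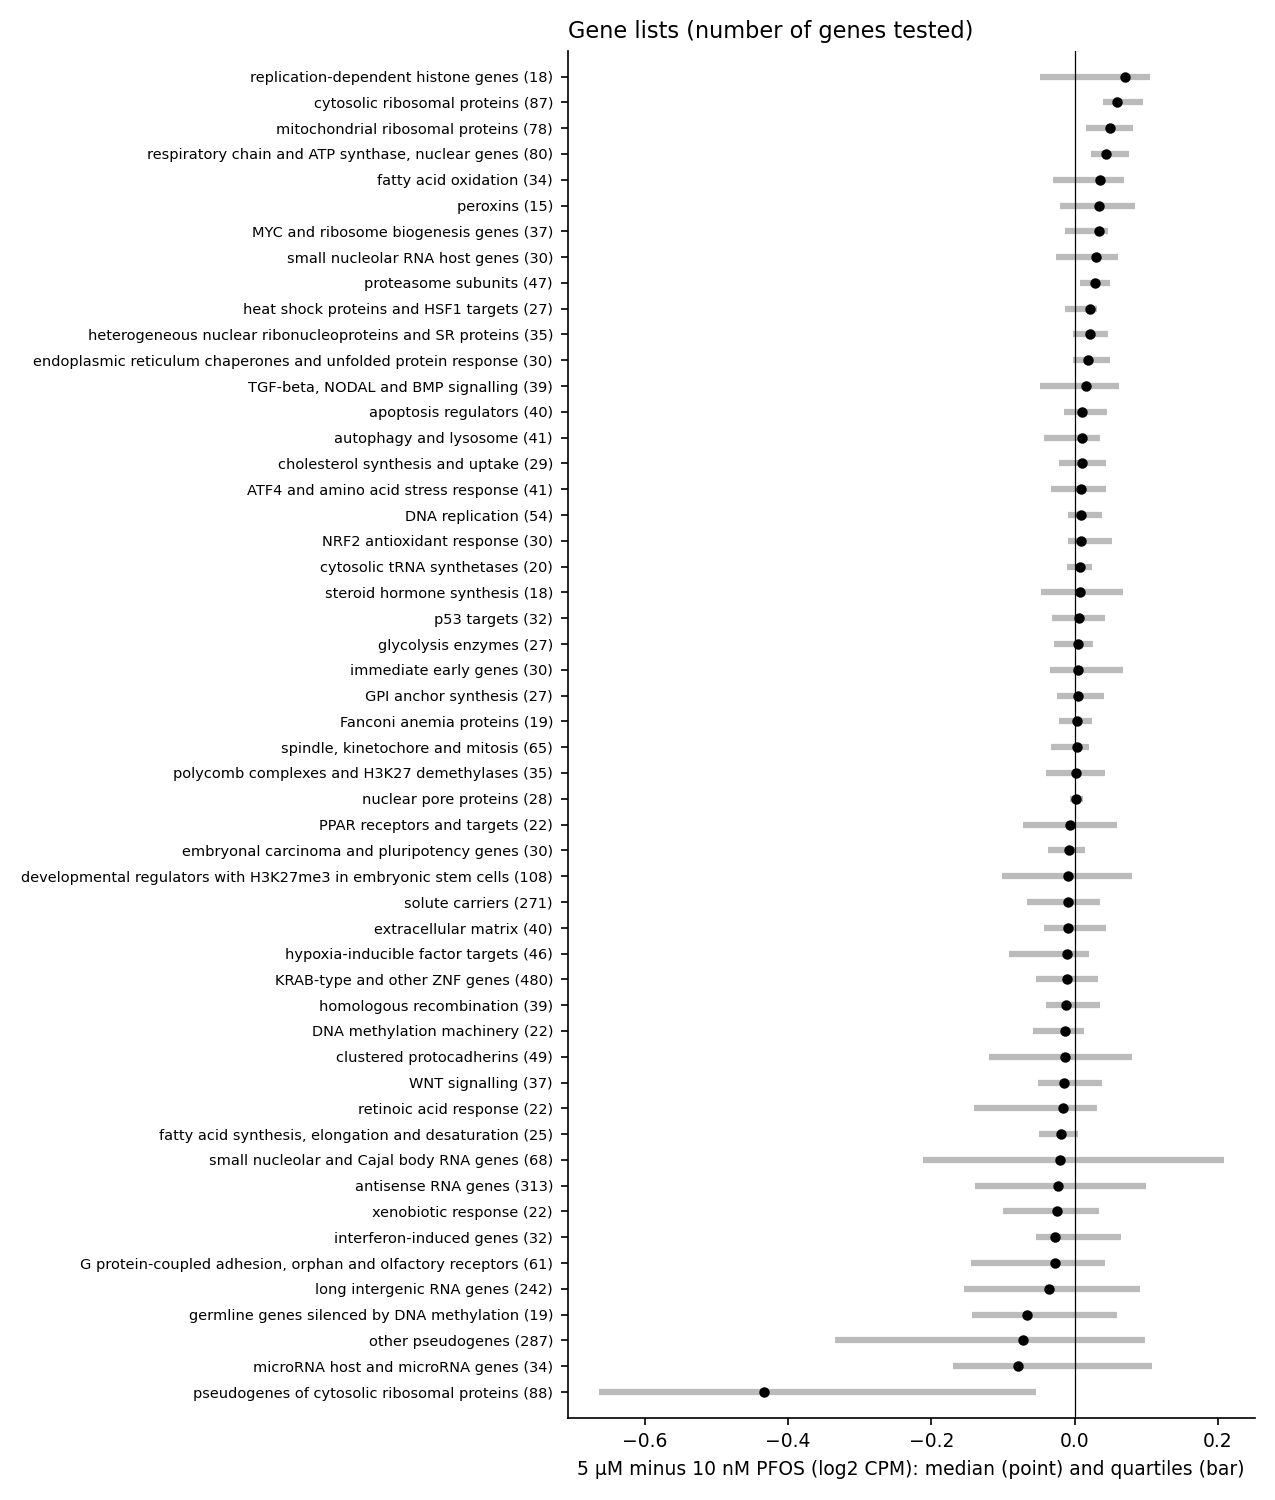
Median difference between 5 µM and 10 nM PFOS (log2 CPM, points) and quartiles (grey bars) for each list of 15 or more genes tested, with the number of genes in brackets. Nearly all medians lie within 0.1 of 0, the cytosolic and mitochondrial ribosomes and the respiratory chain are among those with bars wholly above 0, and the ribosomal protein pseudogenes stand apart at -0.43.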

How the data were processed

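Libraries of 2102EP cells were made with a stranded mRNA kit from cultures treated for 4 days. The authors trimmed reads with Trimmomatic, aligned them with STAR to GRCh38 (p12 in the methods, GRCh38.p14 in the submitters' processing notes) and counted them per gene with featureCounts (versions and strand setting not given in the sources used here). The deposited values are log2 CPM. Each came out as a whole read count within 0.01 reads (100% of values) once a prior count of 3 was removed, and these reads gave the depths. The methods speak of quadruplicate cultures, and 2 libraries per group were used here. The 4 rows without a gene name held at most 0.000443% of reads and were left out, and 13 names that read as dates stayed in the fits and were not named.

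The log2 CPM values of the 6 cultures were fitted in 1 model with limma 3.58.1 (R 4.3.3; variance trend, Benjamini-Hochberg adjustment over all genes), tested on simulated data, with 5 µM minus 10 nM as the contrast. Because reads were recovered, limma-voom was run on them as an alternative and called 0 genes. Other alternatives changed the samples, filter (at least 1 CPM), pseudocount (1 or 0.1 CPM), variance trend, scaling or block, or left out 1 culture. Genes were named by rule: the 12 with the smallest p and the 5 with the largest difference on each side, among genes with a mean of at least 1 log2 CPM and no overlap between doses, the 4 with the smallest p in a list, fixed epigenetic and PPAR genes, and cell type markers. EIF3CL, TRNW, TRNG, TRNH, KRT18P8 and the extreme ribosomal protein genes were added after their values were seen. The members and lists were chosen with earlier results of these data known, and the ribosomal protein list was limited to coding genes and the pseudogene lists were added after seeing the values. Of the named genes, 16486 (98.8%) matched RefSeq (GRCh38.p14), and 14060 of 14085 coding genes had a length from GENCODE 44 canonical transcripts. Replicate numbers did not pair the cultures: deviations of same-numbered cultures correlated at -0.119, 0.142 and 0.00514 over 13013 genes. Columns of the series' other experiments were not used.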

Additional observations from a re-analysis of the deposited data

How the results depend on the processing

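The count of called genes was 0 in the reported model and was 1, EIF3C, in the model of the 4 PFOS cultures alone. When 1 culture was left out it ran from 0 to 59, with 59 without 5 µM replicate 1 and 1 without either control. The count at an unadjusted p under 0.05 was 552, 993 with the 4 PFOS cultures alone, and from 269 to 999 with 1 culture left out (357 without 10 nM replicate 2, 269 without 5 µM replicate 2, 999 and 981 without control 1 or 2). With a replicate block it was 632 with 0 genes called, and since the numbers did not pair the cultures this was only an alternative. The other settings called 0 genes and gave 475 to 688. The count of genes whose doses did not overlap was 5803, and 5113 to 5803 under the other filters, pseudocounts and scalings; leaving out a PFOS culture gives it no value. Of 570 values of single genes under alternatives, 555 kept direction and side of the threshold, 9 passed it and 6 turned: PPARA ran from -0.199 without 10 nM replicate 1 to 0.0198 without 10 nM replicate 2, EZH2 from -0.0568 to 0.0615 under the same omissions (-0.0412 without 5 µM replicate 2), DNMT1 from -0.000443 without 5 µM replicate 1 to 0.00814 without 5 µM replicate 2, and DNMT3B from -0.0173 without 10 nM replicate 1 to 0.00807 without 10 nM replicate 2 (2.4e-05 without 5 µM replicate 1). Of 930 list medians, 834 moved by less than the spread between replicates, or than a small fixed limit where the spread was below it. The other 96 moved further. The cause was not tested. The interval of the difference had a median half-width of 0.58 in genes under 1 log2 CPM and 0.12 in genes of at least 4 log2 CPM.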
